A study of Mus musculus with 18 samples.

Results

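The genes described here are 9 interferon-induced genes, *Rsad2*, *Nlrc5*, *Ifit1*, *Ifit3*, *Isg15*, *Irf7*, *Irf9*, *Stat2* and *Oasl2*, of the 40800 genes in the count table. They were taken by symbol. *Rsad2* and *Nlrc5* were put on the list because their counts differ in *Cryaa*-R49C lenses, so wherever libraries of that line enter a comparison both are described with no test, and the 7 other genes are the ones counted there. An exception is stated with the closing tallies of processing choices. All 9 had enough reads to be among the 13938 genes tested.

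RNA from lenses of C57BL/6J mice was sequenced in 18 libraries, 3 for each of 6 groups, and each library pooled several lenses. In the *Cryaa* line, WT, het and homo mice carried no copy, a single copy or both copies of the R49C mutation of αA-crystallin as a knock-in, and were 2 days old. In the *Cryab* line, WT, het and homo mice carried in the same way the R120G knock-in of αB-crystallin, and were 14 days old. Age, line and cohort changed together, so a difference between the lines cannot be assigned to one of them. The replicates are separate pools of lenses, and p-values measure the spread between these pools. In RNA of whole lenses, fewer cells of a type and less RNA per cell cannot be told apart.

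Library totals were 14272174 to 29639719 counts. The lens list of 10 markers had 9 with counts in every library, and *Lim2* was at 0 in all 18. Markers of other cells were also present, and the 14 macrophage markers summed to 12.7 to 29.5 CPM in *Cryaa* WT lenses, 31.4 to 60.8 CPM in *Cryaa* homo lenses and 1.56 to 4.41 CPM in *Cryab* WT lenses. CPM is the count per 1e6 reads after TMM scaling. *Cryab* WT replicate 1 stood apart from the 2 other WT libraries of its line in several genes, which are given below beside the results they touch. Its retina markers summed to 716 CPM, against 18.5 and 74.1 CPM, and its erythrocyte markers to 146 CPM, against 15.5 and 24.3 CPM.

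Type I interferons bind a receptor made of *Ifnar1* and *Ifnar2*, which carries the kinases *Jak1* and *Tyk2*. These phosphorylate STAT proteins, and *Stat2* joins *Irf9* in a complex that enters the nucleus and binds the interferon-stimulated response element, a short DNA motif in the promoters of responding genes. *Stat2* and *Irf9* are thus subunits of the complex that switches the pathway on, and *Irf7* is a transcription factor that amplifies interferon production. *Rsad2* (viperin) makes a nucleotide that stops viral RNA synthesis, *Ifit1* and *Ifit3* bind viral RNA as partners, *Isg15* is a ubiquitin-like protein that is joined to other proteins, and *Oasl2* is a relative of the enzymes that make oligoadenylate. *Nlrc5* is the coactivator of MHC class I genes and is itself induced by interferons, mainly interferon gamma. Many cells also keep a low level of these genes without any infection.

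The promoters of the 4 effector genes that held the core of that motif are shown here, because the motif is what these members share. Each sequence is the 250 bases before the RefSeq start site in GRCm38.p6, read along the gene, and capitals mark matches to GAAANNGAAA or, on the opposite strand, TTTCNNTTTC. The intervals were chr12:26456453-26456702 for *Rsad2* (minus strand), chr19:34640639-34640888 for *Ifit1* (plus strand), chr19:34583279-34583528 for *Ifit3* (plus strand) and chr4:156200819-156201068 for *Isg15* (minus strand).
Rsad2: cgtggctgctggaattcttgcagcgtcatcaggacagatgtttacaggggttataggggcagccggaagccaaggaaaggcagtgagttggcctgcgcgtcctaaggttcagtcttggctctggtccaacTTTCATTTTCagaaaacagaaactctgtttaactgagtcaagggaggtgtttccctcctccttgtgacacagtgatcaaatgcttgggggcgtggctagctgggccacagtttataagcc
Ifit1: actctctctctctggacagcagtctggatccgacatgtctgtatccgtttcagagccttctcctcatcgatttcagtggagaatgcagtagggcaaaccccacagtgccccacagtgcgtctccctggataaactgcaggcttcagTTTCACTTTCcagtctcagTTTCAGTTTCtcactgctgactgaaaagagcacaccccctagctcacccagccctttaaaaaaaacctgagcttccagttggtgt
Ifit3: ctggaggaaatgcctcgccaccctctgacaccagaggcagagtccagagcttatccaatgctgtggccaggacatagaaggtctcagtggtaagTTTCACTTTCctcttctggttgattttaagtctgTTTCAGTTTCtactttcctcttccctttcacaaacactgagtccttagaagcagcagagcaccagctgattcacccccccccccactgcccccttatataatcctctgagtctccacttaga
Isg15: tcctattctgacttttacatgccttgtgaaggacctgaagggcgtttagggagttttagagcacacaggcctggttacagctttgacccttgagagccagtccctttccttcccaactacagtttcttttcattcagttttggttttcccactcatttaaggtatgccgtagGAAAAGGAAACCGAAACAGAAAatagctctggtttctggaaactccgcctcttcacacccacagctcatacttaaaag

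In the 300 bases searched around each start, the motif was found in 5 of the 8 members with an entry in the RefSeq promoter table, and in 3.44% of all 32851 promoters of the table. *Rsad2* had 1 match, which began 120 bases before the start. *Ifit1* had 2 matches, 104 and 85 bases before it, and *Ifit3* had 2 matches, 156 and 122 bases before it. *Isg15* had 3 overlapping matches between 78 and 57 bases before the start, which the capitals join into a single run. *Stat2* had 1 match 222 bases before its start, and *Irf7*, *Irf9* and *Oasl2* had none in this window. Of the 103 other interferon pathway genes with a promoter entry, 42 held the motif (40.8%). A match is a run of letters and not a measured binding site.

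The genes lay on 8 chromosomes of GRCm38 (GENCODE vM21), at chr12:26442746-26456452 (*Rsad2*, minus strand), chr8:94434356-94527272 (*Nlrc5*, plus), chr19:34640871-34650009 (*Ifit1*, plus), chr19:34583531-34588731 (*Ifit3*, plus), chr4:156199424-156200818 (*Isg15*, minus), chr7:141262706-141266481 (*Irf7*, minus), chr14:55603571-55610030 (*Irf9*, plus), chr10:128270559-128292849 (*Stat2*, plus) and chr5:114896936-114912234 (*Oasl2*, plus). *Ifit1* and *Ifit3* sit in the same cluster of Ifit genes. Exons of *Nlrc5* overlapped 78 bases of *9330175E14Rik* and exons of *Irf7* overlapped 45 bases of *Phrf1*, both on the opposite strand. Exons of *Irf9* overlapped 123 bases of *Rnf31* on the same strand. Whether strand was used in the counting is not given in the sources used here, so reads in the opposite-strand overlaps cannot be told apart. In the same-strand overlap of *Irf9*, reads that fit both genes were left out, since the authors kept only unambiguous reads.

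All 9 genes were detected in every library, and most were low. Per kilobase of transcript, the mean over the 18 libraries was highest for *Rsad2* (2.21 CPM per kb) and *Nlrc5* (1.69 CPM per kb). The 7 others lay between 0.175 CPM per kb (*Irf7*) and 0.401 CPM per kb (*Irf9*). In *Cryaa* WT lenses, the level of *Rsad2* per kilobase was at percentile 61.3 of the tested genes and that of *Nlrc5* at percentile 68.7. Both were therefore middling lens transcripts, while *Ifit1* and *Irf7* were at percentiles 13.4 and 13.

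**Figure D1:**
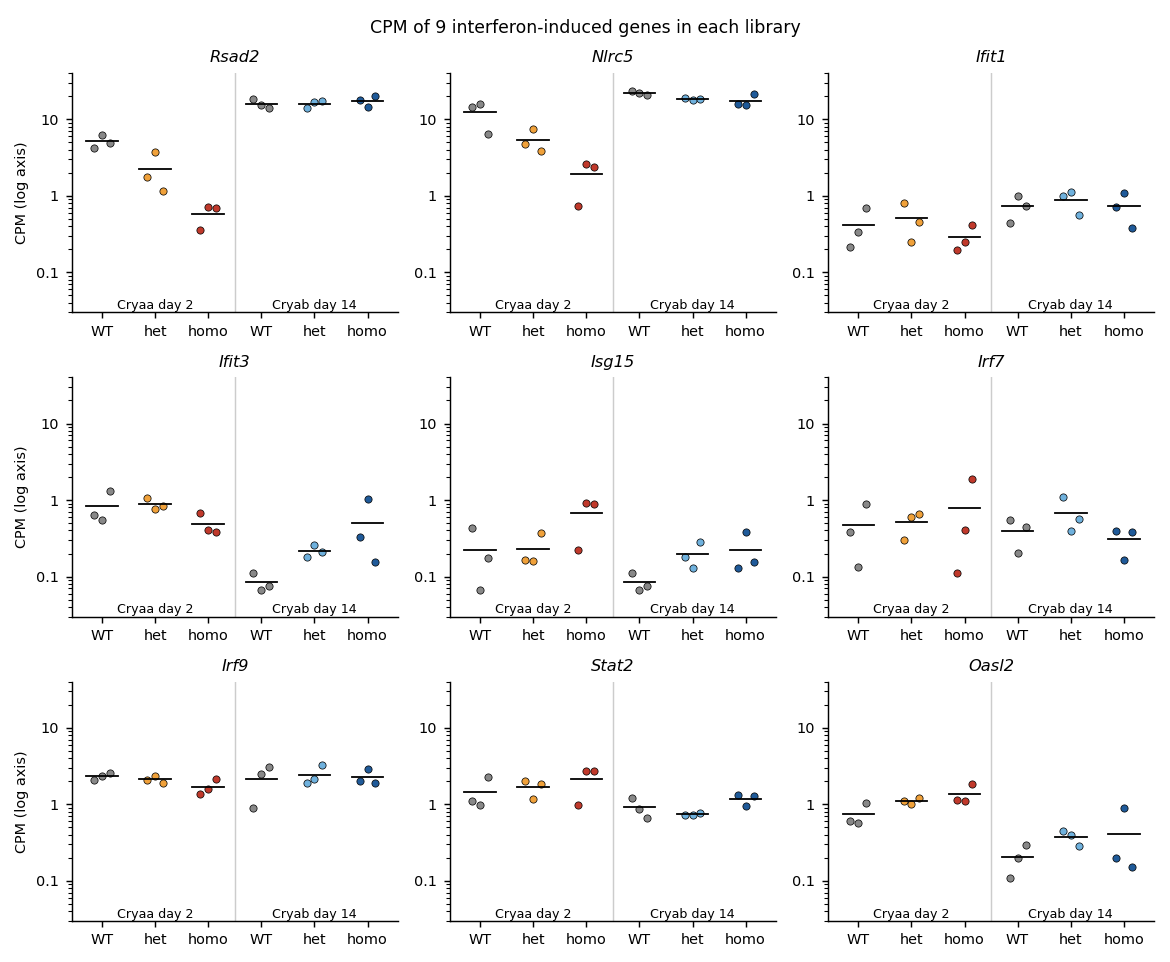
CPM of the 9 genes in each library on a log axis. Each point is 1 library, in replicate order within its group, and the bar is the mean of the 3 libraries. *Rsad2* runs from 0.352 CPM in a *Cryaa* homo library to 19.9 CPM in a *Cryab* homo library, and the 7 lower genes stay between 0.0667 and 3.22 CPM.

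The first question was what the R49C mutation was accompanied by in 2-day-old lenses. *Rsad2* and *Nlrc5* were lower in *Cryaa* homo lenses, with het lenses in between, and none of the 7 other members passed the test in het or in homo lenses. *Rsad2* was at 4.26, 6.21 and 4.94 CPM in WT, at 1.77, 3.73 and 1.17 CPM in het and at 0.352, 0.723 and 0.684 CPM in homo lenses. The groups did not overlap, and the homo libraries held 16, 23 and 18 reads of the gene. As a description of the values that chose it, the log2 difference from WT was −1.22 (SE 0.31) in het and −3.16 (SE 0.35) in homo lenses, and that between homo and het was −1.94.

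*Nlrc5* was at 14.3, 16.0 and 6.48 CPM in WT, at 4.71, 7.43 and 3.89 CPM in het and at 0.727, 2.64 and 2.36 CPM in homo lenses. WT replicate 3 was below het replicate 2, and the homo libraries were below both other groups. The log2 difference from WT was −1.20 (SE 0.35) in het and −2.71 (SE 0.38) in homo lenses, and that between homo and het was −1.51, again as a description. The mean level per kilobase moved from percentile 61.3 to 40.5 to 12.5 for *Rsad2* over WT, het and homo lenses, and from 68.7 to 48.7 to 22.9 for *Nlrc5*.

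Lens markers also differed between these groups. *Bfsp1*, which encodes a beaded filament protein of lens fibre cells, was at 1033, 1154 and 538 CPM in WT, 602, 701 and 373 CPM in het and 106, 273 and 201 CPM in homo lenses. It fell by 2.23 on the log2 scale in homo lenses (SE 0.35, FDR 0.000158). In total 3 of the 9 lens markers tested were lower in homo lenses and none was higher. WT replicate 3 was the lowest WT library both for *Bfsp1* and for *Nlrc5*, but not for *Rsad2*. Pigment epithelium markers were lower as well, with summed levels of 18.6 to 36.0 CPM in WT, 18.4 to 22.0 CPM in het and 9.73 to 15.2 CPM in homo lenses, and 2 of the 8 were called lower in homo lenses. The part of lens fibre or pigment epithelium content in the values of *Rsad2* and *Nlrc5* was not tested.

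*Cmpk2*, a nucleotide kinase gene next to *Rsad2* on the opposite strand and 12751 bases away, is commonly induced together with it and is named for that position, outside the naming rule. Its log2 difference from WT in *Cryaa* homo lenses was −0.17, at 0.341, 0.101 and 0.806 CPM in WT and 0.440, 0.283 and 0.380 CPM in homo lenses, with overlap. All homo libraries were below all het libraries for *Cmpk2*, as for *Rsad2*. *Cmpk2* passed the test in none of the comparisons.

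The 3 transcription factors of the list did not pass the test in the *Cryaa* line. *Stat2* was at 1.11, 0.979 and 2.24 CPM in WT and at 0.969, 2.73 and 2.70 CPM in homo lenses, a log2 difference of 0.55 (SE 0.39, FDR 0.430). *Irf9* was at 2.09, 2.33 and 2.56 CPM in WT and 1.34, 1.57 and 2.17 CPM in homo lenses, a log2 difference of −0.47 (SE 0.33, FDR 0.424). Their WT and homo libraries overlapped. *Irf7* was at 0.383, 0.135 and 0.876 CPM in WT and at 0.110, 0.409 and 1.86 CPM in homo lenses, and replicate 1 to replicate 3 of homo lenses thus spanned the whole range of the gene over all 18 libraries (log2 difference 0.71, SE 0.74, FDR 0.613). Without homo replicate 3 the difference was −0.88.

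Of the 7 genes tested, *Isg15* had the largest difference from WT in homo lenses. It was at 0.426, 0.0675 and 0.175 CPM in WT, 0.163, 0.158 and 0.374 CPM in het and 0.220, 0.911 and 0.875 CPM in homo lenses. Homo replicates 2 and 3 were above every WT and het library and homo replicate 1 was within them. The log2 difference was 1.58 (SE 0.66, FDR 0.141) against WT and 1.46 (SE 0.64, FDR 0.166) against het. Without homo replicate 1 both passed the test, at 2.02 (FDR 0.0284) and 1.90 (FDR 0.0253). All genes called then numbered 3092 against WT, where 1364 were called with all libraries, so that library bears on far more than *Isg15*.

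*Oasl2* was at 0.596, 0.574 and 1.05 CPM in WT, 1.12, 1.01 and 1.2 CPM in het and 1.12, 1.10 and 1.86 CPM in homo lenses. All homo libraries were above all WT libraries, but the log2 difference of 0.86 did not pass the test (SE 0.46, FDR 0.256). *Ifit1* was at 0.213, 0.338 and 0.701 CPM in WT and 0.198, 0.251 and 0.418 CPM in homo lenses (log2 difference −0.57, FDR 0.602). *Ifit3* was at 0.639, 0.540 and 1.30 CPM in WT and 0.683, 0.409 and 0.380 CPM in homo lenses (log2 difference −0.73, FDR 0.421). The partners *Ifit1* and *Ifit3* thus had values below WT on average, with overlap between WT and homo libraries, while *Isg15* and *Oasl2* had values above it. In het lenses *Ifit1* was at 0.817, 0.253 and 0.449 CPM and *Ifit3* at 1.06, 0.759 and 0.848 CPM. All homo libraries were below all het libraries for *Ifit3*, with overlap for *Ifit1*. The log2 difference of *Ifit3* from het, −0.83, did not pass the test (SE 0.50, FDR 0.329).

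Over the 7 genes, edgeR's quasi-likelihood test called 0 in het against WT, where it called 0.00717% of all genes, and 0 in homo against WT, where it called 9.79%. It called 0 in homo against het, where it called 8.32%. At an unadjusted p under 0.05 the numbers were 0, 1 and 1, the single gene being *Isg15*, and DESeq2 and edgeR's likelihood ratio test also called 0 in each. Of all 13938 genes DESeq2 called 2, 1691 and 1448 in these comparisons, and the likelihood ratio test 15, 2887 and 3052. The median log2 difference of the 7 in homo against WT was 0.55, beside 0.0047 over all genes tested. The summed CPM of the 7 was 4.96 to 8.90 in WT, 6.32 to 7.55 in het and 4.65 to 10.3 in homo lenses.

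**Figure D2:**
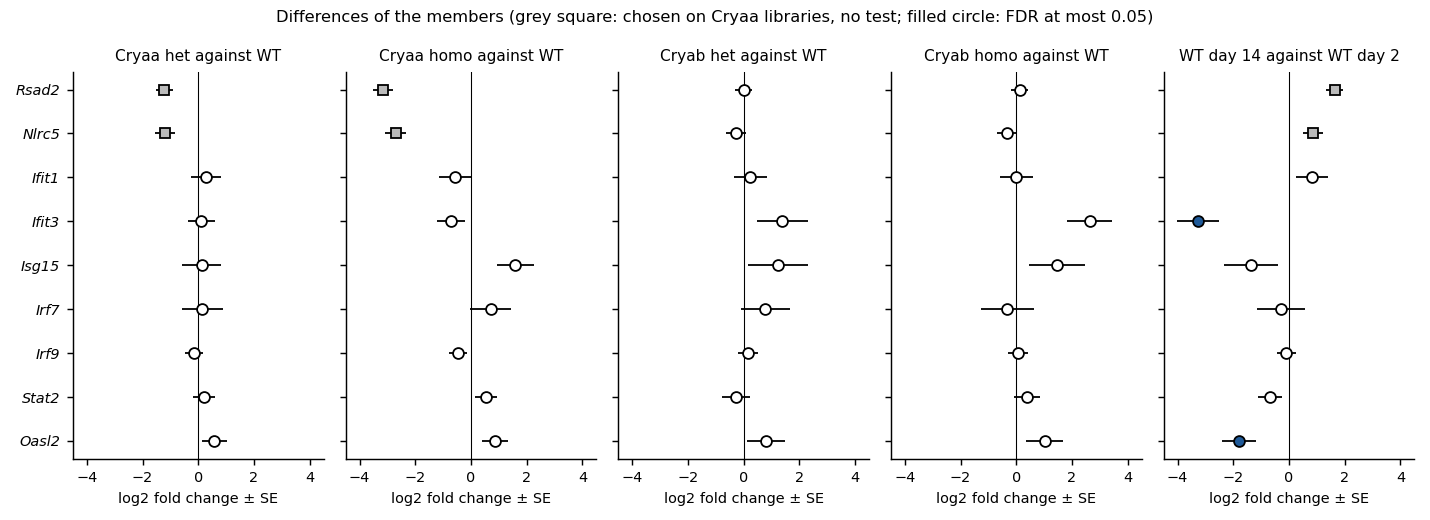
Log2 fold change with its SE for the 9 genes in 5 comparisons. Grey squares mark *Rsad2* and *Nlrc5* where *Cryaa* libraries, on which they were chosen, enter and no test was made, open circles did not pass the test, and filled circles passed at an FDR of at most 0.05. In the *Cryaa* homo panel the grey squares lie at −3.16 and −2.71 while the 7 circles lie between −0.73 and 1.58.

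The same question was asked of the R120G mutation in 14-day-old lenses, where all 9 genes were tested. None passed. *Rsad2* was at 18.4, 15.5 and 14.2 CPM in WT, 14.0, 16.6 and 17.4 CPM in het and 17.9, 14.6 and 19.9 CPM in homo lenses. The log2 difference from WT was 0.0019 (SE 0.30) in het and 0.12 (SE 0.30, FDR 0.987) in homo lenses, and the groups overlapped throughout. *Nlrc5* was at 23.2, 22.3 and 21.1 CPM in WT, 18.8, 17.7 and 18.4 CPM in het and 15.9, 15.2 and 21.5 CPM in homo lenses. All het libraries were below all WT libraries by a small step, with a log2 difference of −0.28 (SE 0.35, FDR 1), and homo lenses differed by −0.34 (SE 0.35, FDR 0.957).

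*Ifit3* had the largest difference in these lenses. It had 1 read in each WT library and 5, 19 and 2 reads in homo replicates 1, 2 and 3, or 0.328, 1.05 and 0.153 CPM. Homo lenses were above WT in all 3 libraries, and replicate 2 held most of the reads. The summed reads gave a ratio of 6.99 to WT (95% exact conditional interval 2.14 to 36.1, which covers counting error only), and the fitted log2 difference was 2.64 (SE 0.81, FDR 0.535). Without homo replicate 2 it was 1.54. Het lenses were at 0.180, 0.261 and 0.210 CPM, with a ratio of 2.77 (0.691 to 15.9). The macrophage markers summed to 10.2, 5.17 and 3.21 CPM in the same homo replicates and to 1.56 to 4.41 CPM in WT, and 12 of the 14 had log2 differences above 0, with a median of 1.31. None was called by the quasi-likelihood test on the filtered genes, and 2 were called higher with every counted gene kept. Pigment epithelium markers summed to 6.61 to 8.31 CPM in WT, 19.5 to 60.1 CPM in het and 18 to 32.4 CPM in homo lenses, and retina markers to 18.5 to 716 CPM in WT, 87.0 to 558 CPM in het and 182 to 1090 CPM in homo lenses. All 8 markers of each of these lists had differences above 0 in homo lenses. None was called on the filtered genes, whereas 7 retina markers and 4 pigment epithelium markers were called higher with every counted gene kept, where 1.14% of all genes were called. The part of any of these cells in the *Ifit3* values was not tested.

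*Isg15* also had 1 read in each *Cryab* WT library and was at 0.131, 0.385 and 0.153 CPM in homo lenses (ratio 2.96, 0.782 to 16.5; FDR 0.926). *Oasl2* had 1, 3 and 4 reads in WT and was at 0.197, 0.880 and 0.153 CPM in homo lenses, with a log2 difference of 1.01 (SE 0.66, FDR 0.909) that became −0.25 without homo replicate 2. Homo replicate 2 was thus the highest homo library for *Ifit3*, *Isg15* and *Oasl2*. The erythrocyte markers summed to 49.2, 178 and 111 CPM in homo replicates 1, 2 and 3 and to 15.5 to 146 CPM in WT. All 5 tested had log2 differences above 0, and none was called (2 with every counted gene kept). The part of these cells in the values was not tested. *Ifit1*, *Irf7*, *Irf9* and *Stat2* had log2 differences between −0.32 and 0.39 in homo lenses and between −0.28 and 0.78 in het lenses, and their groups overlapped.

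The quasi-likelihood test called 0 of 9 in het against WT (0.00717% of all genes) and 0 of 9 in homo against WT (0.0502% of all genes). At an unadjusted p under 0.05 there were 0 in het and 1, *Ifit3*, in homo lenses. DESeq2 also called 0 in each (12 and 20 of all 13938 genes), as did the likelihood ratio test (46 and 257 of all genes). With so few genes called in the whole table, these counts say little about the 9 genes. *Ifit3*, *Isg15* and *Oasl2* had 1 to 4 reads per WT library, so their differences were imprecise.

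The effects of the homozygous mutations in the 2 lines were then compared directly. None of the 7 genes passed the test of the difference in the main fit, where 2.91% of all genes did. *Ifit3* came closest, with a log2 difference between the effects of 3.37 (SE 0.96, FDR 0.0611). It passed by the likelihood ratio test (FDR 0.0355), with every gene that had a count kept (FDR 0.0447), without *Cryaa* homo replicate 1 (FDR 0.0159) and without *Cryab* homo replicate 3 (FDR 0.0259), and not by DESeq2. For *Rsad2* and *Nlrc5* the difference was 3.28 and 2.37, as a description, since it contains the contrast that chose them.

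WT lenses of both lines were compared to describe the 2 ages, with the same *Cryaa* WT libraries that the comparisons above used. Of the 7 genes tested, 2 were lower in 14-day-old WT lenses, *Ifit3* and *Oasl2*, beside 23.2% of all genes called. *Rsad2* and *Nlrc5* were chosen with these *Cryaa* WT libraries and are described only. *Rsad2* was at 4.26 to 6.21 CPM in 2-day-old lenses and at 14.2 to 18.4 CPM in 14-day-old lenses (log2 difference 1.64, SE 0.31). *Nlrc5* was at 6.48 to 16.0 CPM and at 21.1 to 23.2 CPM (0.85, SE 0.35), and neither gene overlapped between the ages. The 3 *Cryab* groups had the highest means of *Rsad2* and of *Nlrc5*, although for *Nlrc5* the homo libraries overlapped with *Cryaa* WT.

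*Ifit3* fell from 68 reads in the 2-day-old WT libraries together to 3 reads in the 14-day-old ones. It was 10.4 times lower (95% exact conditional interval 3.42 to 51.8, FDR 0.00334). *Oasl2* fell by 1.79 on the log2 scale (SE 0.61, FDR 0.0370), from 0.596, 0.574 and 1.05 CPM to 0.110, 0.200 and 0.297 CPM. The call for *Oasl2* was lost without *Cryaa* WT replicate 3 (FDR 0.158) and without *Cryab* WT replicate 1, 2 or 3 (FDR 0.0954, 0.110 and 0.0594). The 5 other genes tested did not pass, with log2 differences of 0.82 for *Ifit1*, −1.37 for *Isg15*, −0.27 for *Irf7*, −0.09 for *Irf9* and −0.69 for *Stat2*.

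These directions depend on how the libraries are put on a common scale. The 10 lens markers summed to 7664 to 12275 CPM in 2-day-old and 138260 to 157790 CPM in 14-day-old WT lenses, and the TMM factors over all libraries ran from 0.488 to 2.27. With library size alone, the median of all genes was −1.61 in this comparison, *Rsad2* was at 0.096, *Nlrc5* at −0.59 and *Ifit1* at −0.81. All 3 of these values lay above that median. Under that scaling 6 of the 7 genes tested were called, all lower, beside 11596 of all 13938 genes, 11439 of them lower. Macrophage markers moved in this comparison too, with 13 of 14 lower at day 14 and their sum 12.7 to 29.5 CPM at day 2 against 1.56 to 4.41 CPM at day 14. The part of those cells in the fall of *Ifit3* and *Oasl2* was not tested.

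Across the 18 libraries, after the mean of each group was taken off, log2 CPM of *Rsad2* and *Nlrc5* had a Pearson r of 0.70. That is a description over libraries that share depth and composition, and it carries no test. The 21 pairs among the 7 other genes had a median r of 0.14 (−0.21 to 0.71), highest for *Ifit1* and *Oasl2* (0.71) and for *Ifit3* and *Oasl2* (0.69). The 14 pairs that joined *Rsad2* or *Nlrc5* with 1 of the 7 had a median r of −0.014 (−0.61 to 0.31). Among the genes whose pattern was most like the mean of the 9 members, by r over the 18 libraries, were *Tyk2* (0.91), *Ebf1* (0.91), *Hip1r* (0.91), *Adamtsl2* (0.88), *Abcb1a* (0.85), *Hnrnph1* (0.85), *Bst2* (0.85), *Sugp2* (0.84) and *Aqp1* (0.84). *Tyk2* and *Bst2* are the genes of that group which belong to the interferon lists below.

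The rest of the pathway was described with 130 other genes in 8 lists, of which 75 were tested. The 21 interferon genes themselves were near absent from the reads, with 17 at 0 in all 18 libraries and 32 reads in all. Of these, 29 came from *Ifnk*, an interferon of skin keratinocytes, with at most 5 in a library. None of the 21 passed the filter on low counts, so none was tested. *Ifnk* had 7 reads in WT lenses at day 2 and none at day 14, at least 1.07-fold lower with 3 reads over the group as the floor.

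Of the 75 genes, 0 were called in *Cryaa* het lenses, beside 0.00717% of all genes (1 at an unadjusted p under 0.05, and 0 by DESeq2). In *Cryaa* homo lenses against WT 6 were called (8%, beside 9.79% of all genes), 5 higher and 1 lower. The higher ones were *Ifi27l2a* (log2 difference 3.52, SE 0.66), *Isg20* (2.86, SE 0.71), *Bst2* (1.90, SE 0.57), *Ifitm3* (1.41, SE 0.37) and *Irf2* (0.82, SE 0.26). The call of *Irf2* was lost with every counted gene kept (FDR 0.0864). The lower one was *Eif2ak2* (−1.09, SE 0.32), the kinase PKR that stops translation when it binds double-stranded RNA, which is named outside the naming rule after its values were seen. By list, 4 of the 34 antiviral effectors tested were higher and 1 was lower, and 1 of the 7 STAT and IRF factors was higher. None passed among the 8 receptors and kinases, the 8 sensors of nucleic acids, the 5 feedback regulators, the 6 GTPases and chemokines of the interferon gamma response and the 7 MHC class I genes. The share of the 75 genes called was close to that of all genes. The count went to 1 without WT replicate 1, WT replicate 2 or homo replicate 3, to 2 without homo replicate 2 and to 15 without homo replicate 1, and *Ifi27l2a* was called in each of these. Calls over all genes in the same order were 731, 775, 1069, 824 and 3092, of 14334 to 14525 tested.

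*Ifi27l2a*, a small membrane protein gene induced by interferon, was at 0.383, 0.169 and 0.420 CPM in WT and 0.771, 4.65 and 5.86 CPM in homo lenses, with no overlap. *Isg20*, an RNA exonuclease, was at 0.264, 1.92 and 2.47 CPM in homo lenses and at most 0.315 CPM in WT. *Bst2* (tetherin), which holds budding virus at the cell surface, was at 0.352, 1.29 and 2.93 CPM in homo lenses and 0.213, 0.371 and 0.596 CPM in WT. In these genes, as in *Isg15*, homo replicate 1 lay near the WT values and replicates 2 and 3 lay above them.

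*Ifitm3*, which blocks viral entry at endosomes, was at 4.18, 3.65 and 7.57 CPM in WT and 5.62, 15.9 and 19.5 CPM in homo lenses. *Irf2*, a transcription factor that binds the same motif, was at 2.43, 3.17 and 2.73 CPM in WT and 3.44, 6.47 and 4.91 CPM in homo lenses, all above WT. *Eif2ak2* was at 4.05, 2.77 and 3.01 CPM in WT and 1.92, 1.73 and 0.913 CPM in homo lenses, all below WT. The lower value of *Eif2ak2* was not called under library size alone.

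The macrophage markers had the same order over the homo libraries as *Ifi27l2a*, *Isg20*, *Bst2* and *Ifitm3*. Their sum was 31.4, 58.2 and 60.8 CPM in homo replicates 1, 2 and 3. All 14 had a positive log2 difference, with a median of 1.36, and 2 of them, *Aif1* and *C1qa*, were called higher. With every counted gene kept, 8 of the 14 were called higher, beside 5.64% of all genes called. Vessel and mesenchyme markers summed to 22.0, 70.4 and 62.3 CPM in the same libraries, against 24.3 to 45.0 CPM in WT. Of these 8 markers, *Cdh5* was called higher (log2 difference 1.78, SE 0.49, FDR 0.0247) and *Col1a2* lower (−1.03, SE 0.26, FDR 0.0129). *Bst2* is also a marker of plasmacytoid dendritic cells. The part of these cells in the values of the interferon-induced genes was not tested.

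**Figure D3:**
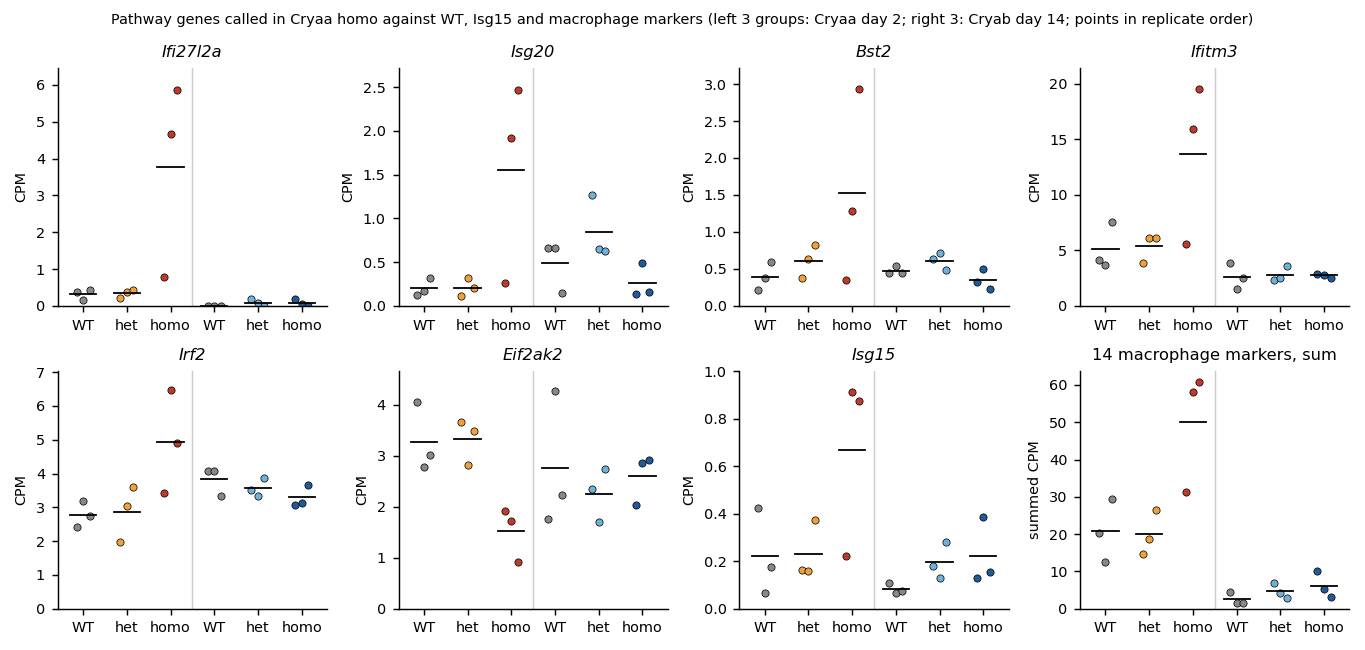
CPM of the 6 other pathway genes called in *Cryaa* homo against WT, of *Isg15* and of the sum of 14 macrophage markers, in each library. Points are libraries in replicate order and bars are means, with the *Cryaa* groups on the left of each panel and the *Cryab* groups on the right. Homo replicate 1 of the *Cryaa* line, the first red point, is lowest of its group for *Isg15* (0.220 CPM), *Ifi27l2a* (0.771 CPM) and the macrophage sum (31.4 CPM).

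Between *Cryaa* homo and het lenses, 7 of the 75 genes were called (9.33%, beside 8.32% of all genes), 6 higher and 1 lower. *Ifi27l2a* (log2 difference 3.43), *Isg20* (2.86), *Ddx60* (1.77), *Trim30a* (1.70) and *Stat3* (0.93) were higher by the naming rule. *Ifitm3* (1.35) was higher and *Eif2ak2* (−1.11) lower outside it. All 14 macrophage markers had log2 differences above 0 here (median 1.23), with 3 called higher. Of the 8 vessel and mesenchyme markers 7 were above 0, with 2 called higher. With every counted gene kept, 8 and 6 of these markers were called higher, beside 5.35% of all genes called. The part of these cells in the values was not tested. Without homo replicate 1 the count of pathway genes was 25, beside 4132 of all 14398 genes. Without any 1 other library of the 2 groups it was 1 or 2, with *Ifi27l2a* called in each. Calls over all genes then ranged from 453 to 600.

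*Nlrc5* is known for switching on MHC class I genes, so these were read beside it. Of 12 genes in the list, 7 were tested, and none was called in either mutant line. In *Cryaa* homo lenses, where *Nlrc5* was lowest, all 7 had log2 differences above 0, between 0.13 (*Tapbp* and *H2-D1*) and 0.92 (*Psmb8*), with a median of 0.55 beside 0.0047 over all genes. *B2m*, the light chain of MHC class I, was at 8.69, 7.36 and 14.5 CPM in WT and 9.87, 17.5 and 16.5 CPM in homo lenses (0.52, SE 0.30, FDR 0.312). *H2-K1*, a heavy chain, was at 1.62, 0.844 and 1.89 CPM in WT and 1.19, 2.51 and 4.30 CPM in homo lenses (0.86, SE 0.50, FDR 0.311). Both overlapped with WT, and the count at an unadjusted p under 0.05 was 1 of 7. The MHC class I genes named here are outside the naming rule and were chosen after their values were seen. In the same comparison the macrophage markers summed to 12.7 to 29.5 CPM in WT and 31.4 to 60.8 CPM in homo lenses, all 14 had log2 differences above 0, with a median of 1.36 and 2 called (8 with every counted gene kept), and homo replicate 1 had both the lowest marker sum and the lowest *B2m* and *H2-K1* of its group. The part of these cells in the MHC class I values was not tested.

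**Figure D4:**
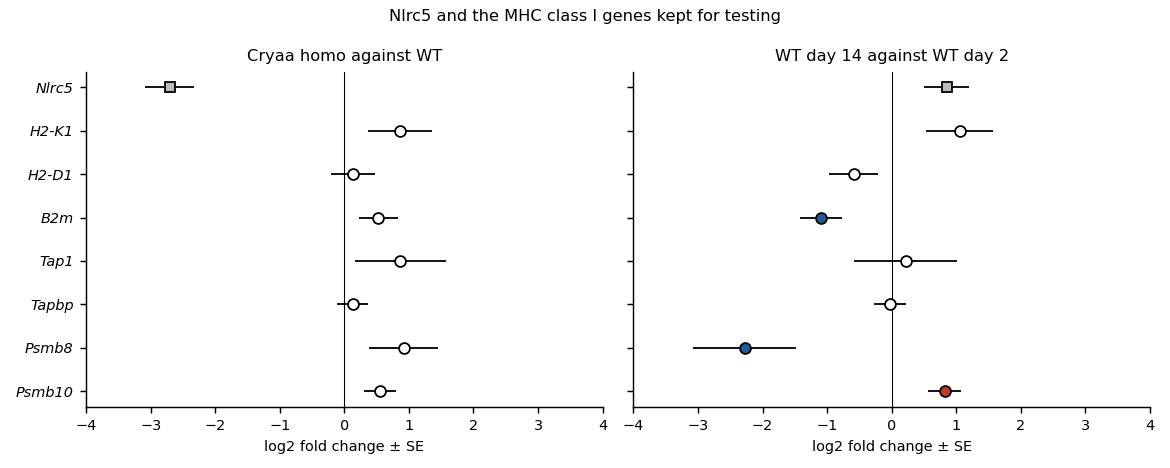
Log2 fold change with its SE of *Nlrc5* and of the 7 MHC class I genes tested, in *Cryaa* homo against WT and in 14-day-old against 2-day-old WT lenses. The grey squares mark *Nlrc5*, chosen on *Cryaa* libraries and not tested, filled circles passed the test (blue lower, red higher) and open circles did not. In *Cryaa* homo lenses *Nlrc5* lies at −2.71 and the other genes between 0.13 and 0.92.

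In *Cryab* lenses 0 of the 75 genes were called in het and 0 in homo lenses by the quasi-likelihood test and by DESeq2, with 9 at an unadjusted p under 0.05 in each. The likelihood ratio test called 0 in het and 2 in homo lenses, *Ifi27* and *Oas2*. Of all 13938 genes the quasi-likelihood test called 1 in het and 7 in homo lenses, DESeq2 12 and 20, and the likelihood ratio test 46 and 257. WT replicate 1 had 66 reads of the chemokine gene *Cxcl10* where the 2 other WT libraries had 0. It also had 10.7 CPM of *Irf1* against 0.400 and 0.223 CPM, 20.2 CPM of *Socs3* against 1.53 and 0.965 CPM, and 6.50 CPM of *H2-K1* against 1.4 and 1.48 CPM. These 4 genes were chosen after their values were seen. In the same library *Rsad2* (18.4 CPM), *Nlrc5* (23.2 CPM), *Stat2* (1.21 CPM) and *Irf7* (0.551 CPM) were the highest of the 3 WT libraries by small steps. *Irf9* (0.881 CPM), *Ifit1* (0.441 CPM) and *Oasl2* (0.110 CPM) were the lowest, and *Ifit3* and *Isg15* had 1 read there as in the other 2.

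Between WT lenses of the 2 ages 14 of the 75 genes were called (18.7%, beside 23.2% of all genes), 6 higher and 8 lower at day 14. With library size alone 54 of the 75 were called, all lower, beside 11596 of all 13938 genes, 11439 of them lower. *Usp18*, which removes *Isg15* from proteins, rose by 1.99 on the log2 scale and *Ube2l6*, which attaches it, by 1.34. *Psmb10*, an immunoproteasome subunit, was higher by 0.82 (FDR 0.0224), a call that was lost with every counted gene kept (FDR 0.103). *Ifi27* (2.81) and *Lgals3bp* (1.61) were also higher and are named outside the rule.

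The lower genes included *Ifnar1*, the receptor subunit, which was at 4.81, 4.69 and 5.54 CPM at day 2 and 2.42, 2.34 and 2.52 CPM at day 14 (log2 difference −1.05, SE 0.29). *B2m* was lower by −1.09 on the log2 scale. *Ifit3b*, a near copy of *Ifit3* with which reads may be shared or lost, had 38 reads at day 2 and none at day 14, at least 5.83-fold lower with 3 reads over the group as the floor. *Ifi27l2a* had 26 reads and none, at least 3.99-fold lower. *Trim30a* was 7.82 times lower (2.53 to 39.2), *Psmb8* 5.06 times lower (1.59 to 25.8; its call was lost with every counted gene kept, FDR 0.0750) and *Uba7*, the activating enzyme of *Isg15*, 12.4 times lower (2.05 to 508). Without *Cryaa* WT replicate 3 the count was 6, with *Ifi27*, *Lgals3bp*, *Ube2l6*, *Usp18* and *Mx1* among them. All genes called then numbered 1782 of 14329.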

How the data were processed

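RNA of pooled whole lenses was made into poly-A libraries and sequenced as single reads. The authors aligned the reads with STAR 2.0.4b to GRCm38 and counted reads per gene with featureCounts 1.4.5 of Subread, as their processing notes and methods name them, and deposited whole-number counts per gene. The deposited RPKM table was used only for the gene length it implies. The CPM and moderated log2 CPM tables, made from these reads, were left out. The table's 41422 lines held 40800 genes after repeated lines were dropped.

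One edgeR 4.0.16 (R 4.3.3) model with 6 group means was fitted to all 18 libraries, with TMM scaling, filterByExpr (13938 genes), robust dispersions and the quasi-likelihood test. FDR is Benjamini-Hochberg over all genes of a contrast, and a gene is called at 0.05 or below. The fit was also run on simulated data, and the outcome is not given here. DESeq2 1.42.0 and 6 other settings were alternatives, besides leaving out each library. SE comes from the main fit. Library totals of 14272174 to 29639719 counts set the precision, and groups at 3 counts or fewer per library got ratios with counting intervals.

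Groups and replicate numbers came from the sample titles, because in 6 *Cryab* libraries the genotype entry gives R49C of *Cryaa*. Among the pairs of groups checked, which left out *Cryab* het and homo, same-numbered libraries deviated together (every r above 0.1) only for *Cryab* WT and homo. Their r was 0.277, 0.176 and 0.156. The members and gene lists were chosen with earlier results of these data known. Outside the members, at most the 4 largest called genes per list and comparison were named, besides the 10 genes most like the members, unless stated. Some genes that this rule names are not reported here.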

Additional observations from a re-analysis of the deposited data

Results flagged for a closer look

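One result met the rule for a difference between groups under the same contrast. It was 1 of the 75 other pathway genes tested (1.33%), beside 2.91% of all genes called in that contrast. *Ifi27*, an interferon-induced mitochondrial protein gene, differed between the lines in the effect of the homozygous mutation, by −2.28 on the log2 scale (SE 0.61, FDR 0.0448, edgeR quasi-likelihood test), with the *Cryab* effect the lower one. In the *Cryab* line it was at 4.63, 4.40 and 7.05 CPM in WT and at 1.38, 2.81 and 1.76 CPM in homo lenses, with no overlap. In the *Cryaa* line it was at 0.383, 0.473 and 1.4 CPM in WT and at 0.771, 1.63 and 1.79 CPM in homo lenses, with overlap. The difference passed the test in 4 of the 12 fits that left out 1 library, and the call was lost with library size alone and with the groups fitted alone. Age and line cannot be told apart here.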

How the results depend on the processing

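Of 371 member values recomputed under 7 alternatives, 358 kept their direction and their side of the threshold, and of 372 with a library left out, 363 did. Sign changes in 11 and 45 of these lay within 1 SE of 0 and are counted as kept. Both tallies also hold the values of *Rsad2* and *Nlrc5* between WT lenses of the 2 ages, where these genes are otherwise only described. In 14-day-old against 2-day-old WT lenses, library size alone called 6 members and 54 other pathway genes, beside 11596 of all 13938 genes. It turned *Nlrc5* to −0.59 and *Ifit1* to −0.81. *Oasl2* in *Cryab* homo lenses ranged from −0.25 (without homo replicate 2) to 1.37 (without WT replicate 3). The cause was not tested.

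With every gene that had a count kept, 3 other pathway genes were called in *Cryab* het, 4 in *Cryab* homo and 5 in the difference between the lines, with 1 member (*Ifit3*). Of all 26547 genes, 0.527%, 1.14% and 3.01% were called in the same order. The likelihood ratio test called 13 in *Cryaa* homo against WT, 13 in homo against het, 2 in *Cryab* homo and 6 in the difference between the lines, with 1 member (*Ifit3*). Of all 13938 genes it called 2887, 3052, 257 and 1454 in the same order. In the difference between the lines DESeq2 called 2, beside 626 of all 13938 genes. Library size alone and the groups alone called 0 there, beside 255 of 13938 and 209 of 13482 genes. The groups alone called 1 in *Cryaa* homo against WT, beside 478 of 12920 genes. They called 1 in homo against het, beside 294 of 13386 genes.

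With a library left out, member calls ranged from 0 to 1 in *Cryaa* homo against WT, in homo against het and in the difference between the lines. Other pathway calls ranged from 1 to 15, from 1 to 25 and from 0 to 9 in these, and from 6 to 16 between WT lenses. Calls over all genes ranged from 731 to 3092, 453 to 4132, 244 to 1800 and 1782 to 3172 in the same order. In the difference between the lines, the call of *Ifi27* was lost without *Cryaa* WT replicate 1 or 2, *Cryaa* homo replicate 2 or 3, *Cryab* WT replicate 2 or 3, or *Cryab* homo replicate 1 or 3.

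The replicate number as a block raised the other pathway genes called in the difference between the lines to 3 (*Ifi27*, *Isg20* and *Oas2*), while calls over all genes went from 406 to 481. For *Cryab* WT and homo every same-numbered pair had r above 0.1, but the sample titles name no litter or pair. In that comparison the block changed no call among the members and the other pathway genes, while calls over all genes went from 7 to 18. In the 4 other pairs of groups checked, all within a line, at least 1 pair of same-numbered libraries had r of 0.1 or below. The numbers of *Cryab* het and homo, and those between the lines, were not checked.

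*Ifit3*, *Isg15* and *Oasl2* had 1 to 4 counts per library in *Cryab* WT, so their differences there are imprecise. Library totals differ by line less than the TMM factors do, so levels compared across lines rest on the scaling.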
